A study of Mus musculus with 24 samples.

Results

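Ribosome-bound RNA of cortical astrocytes was compared between sleep-deprived and sleeping mice. The comparison rests on 12 of the 24 arrays of the series, 6 of each state, picked by the sample type given in their labels, and on the 18193 genes that these arrays measured. All animals were adult mice heterozygous for aldh1l1 - eGFP-L10a, a transgene that puts an eGFP-tagged ribosomal protein L10a under control of the astrocyte promoter of Aldh1l1. Pulling down the tag from cerebral cortex gave the bound fraction, and what stayed in the supernatant gave the unbound fraction, which holds the RNA of the other cells and whatever astrocyte RNA was not captured. The sleeping mice were taken between 3 and 5 pm from a sleep bout of over 45 min, having slept for at least 75% of the preceding 6 to 7 h. The sleep-deprived mice had been awake for most of the dark phase and were then kept awake for 4 h of the light phase with objects they did not know. The hour at which they were taken was not given in the sources used here. State and hour therefore cannot be told apart for any gene. Spontaneously awake mice of the dark phase (6 bound arrays, between 3 and 5 am) and 6 unbound samples, each pooled from animals 1 to 3 or animals 4 to 6 of a state, are used here only to show where the effect of sleep deprivation differs. Each bound array came from 1 animal.

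Astrocytes take up potassium and glutamate that neurons release, hold the glycogen of the brain, exchange metabolites with vessels and neurons, and are coupled to each other by connexins. Their transcripts respond to hormones as well as to neuronal activity. Corticosterone, which rises when rodents are kept from sleep, acts through the glucocorticoid receptor, a transcription factor with a well described set of targets. Noradrenaline and other transmitters of the waking brain act on astrocytes partly through calcium and cyclic AMP, whose kinase activates the transcription factor CREB at the cAMP response element. Notch signalling, which depends on contact between cells, maintains astrocyte and progenitor gene programmes through HES and HEY repressors.

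All values are log2 RMA levels, on which a difference of 1 is a doubling of the signal. The median gene was 0.11 higher in the sleep-deprived than in the sleeping group, and log2 differences and folds below are given relative to that median (0.02 against waking, 0.18 in the unbound pools and -0.06 for the difference between fractions), with their standard errors (SE). A gene passed at an adjusted p under 0.05, a call that rests on the difference before the median was taken off. Exactly tied values occurred in 48 of 48 pairs of arrays within a group and in 0 of 228 pairs from different groups, so that state and normalization run cannot be told apart, and each call was repeated after a further quantile normalization over all bound arrays. Aldh1l1 lay at 10.52, 10.84 and 11.24 in sleep and at 10.80, 11.11 and 11.27 after sleep deprivation (lowest, median and highest of 6, the order used throughout), a difference of 0.12 ± 0.14 (adjusted p = 0.326). Rpl10a, the gene of the tagged protein, differed by -0.02 ± 0.24 (adjusted p = 0.877). The mean level of 26 astrocyte markers ranged from 11.70 to 11.87 in sleep and from 11.67 to 11.95 after sleep deprivation, against 8.37 to 8.42 in the unbound sleep pools. Neuronal RNA was present in the bound arrays, with 21 neuron markers at a mean of 9.07 to 9.58 in sleep, 9.21 to 9.63 after sleep deprivation and at a median of 11.03 in the unbound sleep pools. Animals 4 to 6 differed from animals 1 to 3 within each state, in 4495 genes in sleep and 4145 after sleep deprivation, whereas the effect of sleep deprivation differed between these sets in 0 genes at an adjusted p under 0.05 (1099 at an unadjusted p under 0.05, limma). In bulk RNA, fewer cells of a type and less RNA per cell cannot be told apart.

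Sleep deprivation went with more calls upward than downward, and many of the upward calls were at genes with a weak signal. Of 18193 genes, 2230 were higher (12.3%) and 367 lower (2.02%), and 964 (5.3%) and 365 (2.01%) of them also passed in the same direction after repeated quantile normalization. With the replicate number as a block, 654 genes were lower. Among the 11634 genes whose mean bound level was at least 5.79, the median of all probe sets, 644 were higher (5.54%) and 115 lower (0.988%), and under both scalings 267 (2.29%) and 115 (0.988%). Among the 6559 dimmer genes 1586 were higher (24.2%) and 252 lower (3.84%). The share of calls that were higher was 85.9% as deposited, 55.8% after repeated quantile normalization and 57.9% with arrays centred on their medians. The genes described below therefore passed under both scalings unless the text says otherwise, and dim genes are named as dim. Counts of list members that passed are to be read beside these shares of all genes.

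**Figure D1:**
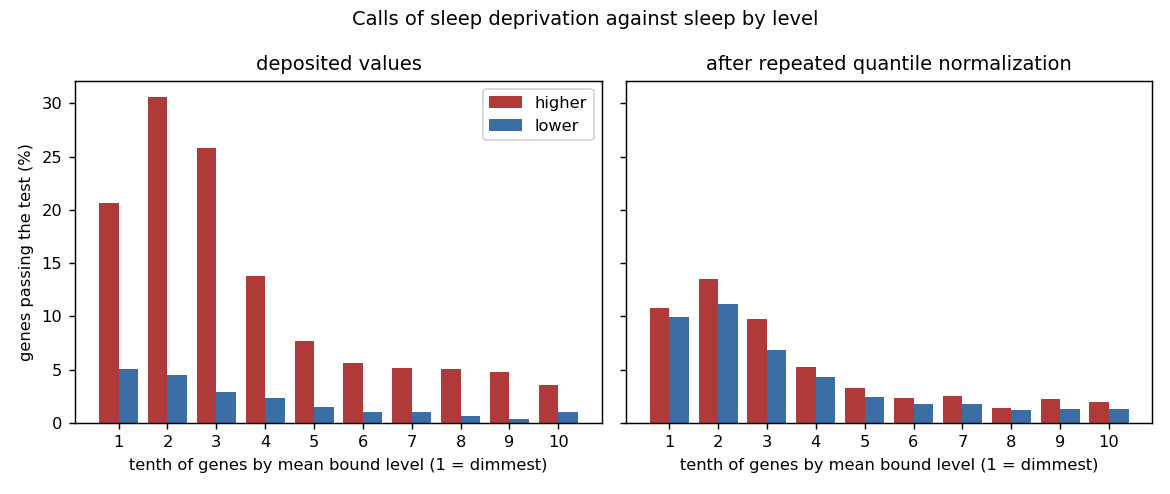
Share of genes in each of 10 equal bins of mean bound level (x axis, 1 the dimmest) that passed as higher (red) or lower (blue) after sleep deprivation, in percent (y axis), with the deposited values (left) and after repeated quantile normalization (right). With the deposited values 20.6% of the dimmest bin and 3.52% of the brightest bin passed as higher.

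Several of the strongest increases were at genes known to respond to glucocorticoids. Of 27 measured members of the list of the receptor and its responsive genes, 15 rose, 12 of them under both scalings, 1 fell and 11 did not pass, with a median log2 difference of 0.58 and 23 members above the median gene. Over all genes 12.3% rose, and 5.3% under both scalings. This list was chosen with earlier results of these data known, so its count is a description and no independent test. Fkbp5, which encodes an inhibitory co-chaperone of the receptor, had levels of 6.21, 6.56 and 6.74 in sleep and 7.79, 9.81 and 10.96 after sleep deprivation, a 7.31-fold rise (adjusted p = 0.000222). No sleep-deprived animal reached down to the sleep group, but the 6 sleep-deprived animals spread over more than 3 log2 units.

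That spread followed the animal numbers. In animals 1 to 3 Fkbp5 was higher by 3.92 and in animals 4 to 6 by 1.81, although no difference between the sets passed the test (adjusted p = 0.55). The pattern recurred in Cdkn1a, the gene of p21, an inhibitor of cyclin-dependent kinases, at 7.46, 7.81 and 8.19 in sleep and 9.18, 10.99 and 12.09 after sleep deprivation, with 3.91 in the first set and 1.69 in the second (adjusted p of the difference between sets 0.303). Zbtb16, a zinc finger repressor gene, went from 6.84, 7.35 and 7.46 to 7.44, 9.70 and 10.43, a 3.77-fold rise (adjusted p = 0.00103) with 5 of 6 sleep-deprived animals above every sleeping one. Here the sets gave 2.65 and 1.17. Hif3a, a hypoxia-inducible factor gene, showed no such division. It rose from 6.47, 7.10 and 8.21 to 9.19, 9.97 and 10.61 without overlap, by 2.54 in animals 1 to 3 and 2.59 in animals 4 to 6, and 5 of its 6 probe sets passed.

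More moderate increases were seen in genes through which glucocorticoids are known to restrain inflammation and growth. Tsc22d3, which encodes the leucine zipper protein GILZ, had levels of 10.34, 10.87 and 11.36 in sleep and 11.35, 12.26 and 12.65 after sleep deprivation (2.33-fold, adjusted p = 0.000436), so that only the edges of the groups touched. Nfkbia, the gene of an inhibitor of NF-kappa-B, rose 1.8-fold (adjusted p = 0.000719) and did so in 4 of 5 probe sets. Klf15, a transcription factor gene of amino acid and lipid metabolism, was no member of the list and was picked after its values had been seen. It went from 9.79, 10.18 and 10.59 to 10.76, 11.14 and 11.34 without overlap (1.68-fold, adjusted p = 0.000973), and by 0.73 and 0.76 in the sets of animals. Klf9, a related gene, already lay near the top of the scale and rose 1.18-fold (adjusted p = 0.00339), a call that was lost with centred arrays and with the mean of its probe sets. Sult1a1 (3.13-fold), Cables1 (1.72-fold) and Txnip (1.9-fold), genes of a sulfotransferase, of a regulator of cyclin-dependent kinases and of a thioredoxin inhibitor, rose as well.

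The gene of the receptor itself, Nr3c1, was the 1 member that fell. Its levels were 9.66, 9.85 and 10.05 in sleep and 9.13, 9.41 and 9.66 after sleep deprivation, 1.47-fold lower (adjusted p = 0.0469), with 5 of 6 sleep-deprived animals below every sleeping one. The call was lost in 13 of 21 alternatives and held for 1 of 6 probe sets. Leaving out any 1 of the 12 arrays lost it except sleep array 1 and sleep deprivation array 6, with a highest adjusted p of 0.103. Not every well known target passed. Sgk1, the gene of a serum- and glucocorticoid-induced kinase, differed by 0.17 ± 0.34 (adjusted p = 0.686), and Pdk4, which encodes a kinase that limits pyruvate oxidation, by 0.20 ± 0.34 (adjusted p = 0.649).

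**Figure D2:**
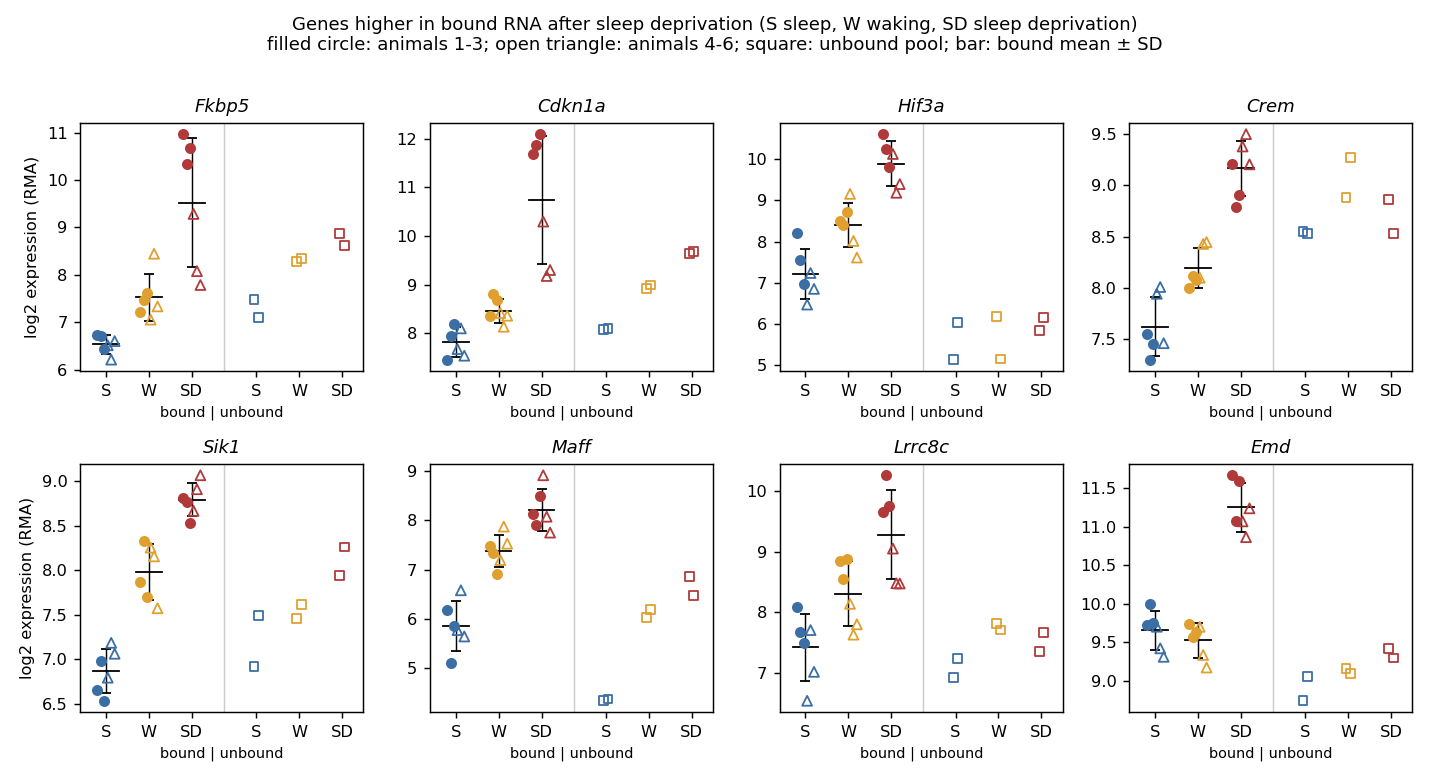
Log2 RMA level (y axis) of 8 genes that rose after sleep deprivation, array by array, with sleep marked S, waking W and sleep deprivation SD, bound arrays left and unbound pools right of the grey line, and the bound mean ± SD as bars. Animals 1 to 3 (filled circles) lie above animals 4 to 6 (open triangles) in sleep deprivation for Fkbp5 and Cdkn1a, and Emd is high in the sleep-deprived group alone.

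A second group of increases belonged to genes that cells switch on within minutes to hours of stimulation. Among AP-1, ATF and small Maf transcription factor genes 6 of 19 rose, all 6 under both scalings, and none fell (median 0.22). Of 22 genes of the EGR, NR4A and KLF families and other early factors 7 rose (5 under both scalings), and none fell (median 0.36). Among 18 activity-induced effectors 5 rose (4 under both scalings) and none fell (median 0.47). Over all genes the share that rose was 12.3%, and 5.3% under both scalings.

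Maff, a small Maf protein that pairs with other leucine zipper factors, combined a large rise with enrichment in the bound fraction (log2 1.29 above the unbound pools in sleep). Its levels were 5.10, 5.81 and 6.58 in sleep and 7.75, 8.11 and 8.91 after sleep deprivation, a 4.74-fold rise (adjusted p = 4.93e-06) without overlap. Nr4a1, an orphan nuclear receptor gene, went from 6.14, 6.36 and 6.93 to 8.32, 8.74 and 9.48 (4.5-fold, adjusted p = 2.88e-05). Fosb (4.44-fold), Nr4a3 (3.06-fold) and Egr3 (2.71-fold) likewise had no sleep-deprived animal within the range of sleep, and Fos rose 2.12-fold. Junb, another AP-1 gene and dim here, had a median level of 6.00 against 5.69 in sleep and did not pass (adjusted p = 0.844), and Npas4, known from neurons, was dim with levels of 3.25 to 3.75 after sleep deprivation against 3.38 to 3.74 in sleep.

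Several of these genes had a higher level in the unbound pools than in the bound arrays of the sleeping state, 5.95-fold for Egr2, 3.28-fold for Arc, 2.48-fold for Egr3, 2.08-fold for Nr4a3 and 2.18-fold for Crem. The neuron markers, whose mean ranged from 9.07 to 9.58 in sleep and 9.21 to 9.63 after sleep deprivation, did not separate the groups, and 1 of 21 rose and 1 fell. The part of neuronal RNA in the rise of the early genes was not tested. Egr2, a zinc finger factor gene, had levels of 2.58, 4.56 and 5.58 in sleep and 6.92, 7.88 and 8.56 after sleep deprivation (9.71-fold, adjusted p = 0.000387). All its sleep levels lay below the limit of 5.79 for dim genes, where the size of a fold is uncertain. Arc, best known from neuronal synapses, went from 5.29, 6.06 and 6.75 to 7.77, 8.80 and 9.47.

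Crem and Sik1, genes of the feedback on cyclic AMP signalling, rose with little spread between animals. Crem encodes relatives of CREB that include early repressors of cAMP-driven transcription, and Sik1 a kinase that keeps CREB coactivators out of the nucleus. Crem had levels of 7.30, 7.51 and 8.01 in sleep and 8.79, 9.21 and 9.50 after sleep deprivation, 2.69-fold higher (1.43 ± 0.15, adjusted p = 4.22e-06), with a rise of 1.43 in either set of animals and 3 of 4 probe sets past the test. Sik1 went from 6.54, 6.89 and 7.19 to 8.53, 8.79 and 9.07, 3.51-fold higher (1.81 ± 0.15, adjusted p = 7.72e-07), with 1.88 and 1.74 in the sets. In both genes the gap between the groups exceeded the range within either group. Its relative Sik2 rose by 0.96 (adjusted p = 0.00309). Pde4d, a phosphodiesterase that degrades cyclic AMP, rose 1.57-fold from 7.87, 7.94 and 8.45 to 8.68, 8.81 and 9.15 (adjusted p = 0.00105). It was the 1 member of 18 genes of cAMP signalling and adrenergic receptors that rose under both scalings, and 2 more rose with the deposited values only (median -0.03). These counts stand beside 12.3% of all genes that rose, and 5.3% under both scalings.

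Some genes of feedback on MAP kinase signalling rose. Of 20 genes of MAP kinase phosphatases and receptor tyrosine kinase inhibitors 4 rose, 3 of them under both scalings, and none fell (median 0.20). Among all genes 12.3% rose, and 5.3% under both scalings. Dusp1, a nuclear phosphatase of MAP kinases, had levels of 9.82, 10.13 and 10.46 in sleep and 10.85, 11.09 and 11.34 after sleep deprivation (1.81-fold, adjusted p = 0.000144), with no overlap. Dusp6, a cytoplasmic phosphatase of ERK, rose 1.57-fold (adjusted p = 0.00269) and Spry4, an inhibitor of receptor tyrosine kinase signalling, 1.43-fold (adjusted p = 0.00959), a call lost with centred arrays. Homer1, which has short activity-induced and long constitutive forms, rose 2.08-fold (adjusted p = 0.000806), and its probe sets disagreed. Of 6 probe sets, 3 passed with differences of 1.05, 1.66 and 2.24, and the others lay at 0.02, -0.19 and 0.36.

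Promoter sequences were searched for the cAMP response element in its full palindromic form only, and other forms of the motif were not searched. The palindrome TGACGTCA, which reads alike on both strands, was searched in RefSeq promoters of GRCm38.p6 that run from 250 bases before to 50 bases after each gene start. The table held 18109 such windows for 14452 measured genes, and 55 of the 68 genes described closely here, Crem and Sik1 not among them. The motif stood in 2.49% of all windows, in 4.2% of the windows of bright genes that rose under both scalings (11 of 262) and in 4.27% of those of bright genes that fell (5 of 117), so the share was alike in both directions. A match is a description of the letters only. Among the genes described closely it was present in 5 that rose, of which 4 of different function are shown. Their windows are printed 5′ to 3′ with the motif in capitals, in Maff at bases -29 to -22 from the start (chr15:79347270-79347569, plus strand, 1 of 3 windows of the gene), Dusp1 at -143 to -136 (chr17:26508423-26508722, minus strand), Lrrc8a at -108 to -101 (chr2:30237519-30237818, plus strand) and Dio2 at -95 to -88 (chr12:90738989-90739288, minus strand).
Maff: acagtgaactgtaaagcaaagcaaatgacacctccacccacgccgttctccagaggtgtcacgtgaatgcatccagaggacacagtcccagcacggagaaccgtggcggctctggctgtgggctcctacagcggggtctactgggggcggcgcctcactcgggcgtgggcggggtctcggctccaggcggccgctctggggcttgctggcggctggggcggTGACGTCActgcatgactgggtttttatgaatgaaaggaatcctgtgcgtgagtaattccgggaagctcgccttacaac
Dusp1: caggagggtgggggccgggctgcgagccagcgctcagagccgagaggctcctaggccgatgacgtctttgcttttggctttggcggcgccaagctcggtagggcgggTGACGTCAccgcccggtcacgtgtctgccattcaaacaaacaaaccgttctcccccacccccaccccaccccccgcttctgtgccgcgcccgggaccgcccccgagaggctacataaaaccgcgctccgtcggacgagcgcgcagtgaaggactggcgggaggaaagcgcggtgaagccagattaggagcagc
Lrrc8a: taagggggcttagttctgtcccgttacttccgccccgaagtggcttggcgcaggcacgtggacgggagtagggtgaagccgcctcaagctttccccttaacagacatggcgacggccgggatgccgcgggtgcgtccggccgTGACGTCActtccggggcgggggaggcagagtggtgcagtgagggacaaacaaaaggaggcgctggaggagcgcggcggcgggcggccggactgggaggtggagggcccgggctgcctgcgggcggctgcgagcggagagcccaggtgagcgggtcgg
Dio2: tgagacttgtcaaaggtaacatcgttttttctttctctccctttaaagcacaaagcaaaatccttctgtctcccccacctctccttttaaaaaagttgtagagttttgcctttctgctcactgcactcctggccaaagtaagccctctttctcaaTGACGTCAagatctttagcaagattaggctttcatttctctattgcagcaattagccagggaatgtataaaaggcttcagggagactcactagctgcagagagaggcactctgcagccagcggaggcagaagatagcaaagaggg
The same palindrome stood in the windows of Fscn1, described below as risen, at -45 to -38, of Pax6, described below as lower, and of Sphk2, whose probe sets disagreed in direction.

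Dio2 and Lrrc8a are genes of astrocyte physiology. Dio2 encodes the deiodinase with which astrocytes convert thyroxine to the active hormone for neurons. Its level rose from 11.70, 12.04 and 12.35 to 12.53, 12.72 and 12.96 without overlap (1.49-fold, adjusted p = 0.00208), and in the unbound pools, where it was 5.73-fold lower in sleep, it rose by 1.02 (adjusted p = 0.00271). Slco1c1, a thyroxine and anion transporter gene, rose 1.35-fold (adjusted p = 0.0125), a call lost with centred arrays.

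Lrrc8a and Lrrc8c, genes of volume-regulated anion channels, rose, and other genes of this family are not described here. Lrrc8a, the subunit without which these channels do not form, went from 8.80, 9.38 and 9.57 to 9.87, 10.05 and 10.47 (1.62-fold, adjusted p = 0.000962). Lrrc8c, a partner subunit, went from 6.54, 7.59 and 8.09 to 8.48, 9.36 and 10.27 (3.37-fold, adjusted p = 0.000864), and both of its probe sets passed. Neither gene had a sleep-deprived animal in the range of sleep. Kcnn2, a calcium-activated potassium channel gene, rose from 9.65, 10.04 and 10.41 to 10.76, 11.12 and 11.57 (1.91-fold, adjusted p = 0.000184). Lrrc8c and Kcnn2 were not on a list and were picked after their values had been seen. Of 20 genes for potassium, water and pH homeostasis and connexins, Lrrc8a alone passed (median -0.13), where over all genes 5.3% rose under both scalings. The connexin gene Gjb6 was counted on the glucocorticoid list and not among these, and it rose under both scalings. Aqp4, the water channel gene, differed by -0.30 ± 0.10 (adjusted p = 0.259) and Kcnj10, the gene of the main inward rectifier, by -0.29 ± 0.24 (adjusted p = 0.724).

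Other membrane and secreted proteins also changed. Adm, the gene of the vasodilator adrenomedullin, rose 3.02-fold from 8.72, 9.95 and 10.94 to 10.95, 11.45 and 12.39 (adjusted p = 0.00393), with the lowest sleep-deprived animal just above the highest sleeping one, and 1 of its 2 probe sets passed. Edn1, the gene of the vasoconstrictor endothelin-1, was dim and rose from 4.64, 4.78 and 4.91 to 5.22, 5.60 and 5.97 (1.63-fold, adjusted p = 0.000103), and the dim natriuretic peptide receptor gene Npr1 rose 2.09-fold. These 3 were the members that passed among 20 genes of vasoactive peptides, nitric oxide and their receptors (median -0.002). With the deposited values 12.3% of all genes and 24.2% of dim genes rose. All 3 also passed under both scalings, as did 5.3% of all genes in the upward direction. Bambi, the gene of a decoy receptor that dampens TGF-beta and BMP signals, rose 2.76-fold from 5.54, 5.76 and 6.85 to 7.04, 7.34 and 8.04 (adjusted p = 0.000791). With Skil (1.56-fold), a repressor of SMAD proteins, it made up the 2 of 22 TGF-beta, BMP and Id genes that passed (median -0.01), where over all genes 5.3% rose under both scalings.

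Insulin signalling gave 1 rise under both scalings. Irs2, the gene of an insulin receptor substrate, had levels of 8.16, 8.66 and 9.27 in sleep and 9.10, 10.05 and 10.74 after sleep deprivation (2.22-fold, adjusted p = 0.00491), with 5 of 6 sleep-deprived animals above every sleeping one, while 19 of 22 members of the insulin, FOXO and mTOR list did not pass. Mertk, a receptor with which astrocytes engulf synapses and debris, rose 1.43-fold (adjusted p = 0.0017) and was the 1 of 18 phagocytosis genes to pass. Mfsd2a, a carrier of lysophospholipids, rose 2.35-fold (adjusted p = 0.00193). Hbegf, the gene of an EGF receptor ligand, rose 1.55-fold (adjusted p = 0.00322). Among 27 genes of intermediate filaments and reactive astrocytes Cd44, the hyaluronan receptor gene, rose 1.71-fold (adjusted p = 0.00522), 1 more rose with the deposited values only, and Gfap differed by -0.07 ± 0.24 (adjusted p = 0.952). The other Cd44 probe sets lay at 0.21, 0.48 and -0.36 without passing (adjusted p = 0.525, 0.0577 and 0.176). With the mean of its probe sets Cd44 was higher by 0.27 (adjusted p = 0.0331). The list counts of this paragraph stand beside 12.3% of all genes that rose, and 5.3% under both scalings.

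Some clear increases lay outside the lists. Rin2, which encodes a RAB5 regulator of endocytosis, went from 8.62, 9.12 and 9.56 to 10.35, 10.56 and 10.68 (2.51-fold, adjusted p = 4.3e-05), with a wide gap between the groups. Arhgap31, the gene of a GTPase-activating protein for CDC42 and RAC1, rose 2.64-fold (adjusted p = 0.00033). Gem, a small GTPase gene of the RGK family, rose 2.71-fold (adjusted p = 0.00013) and by 2.06 in the unbound pools (adjusted p = 0.00114). Smc5, a subunit gene of a chromosome maintenance complex, rose 2.62-fold (adjusted p = 7.47e-05), and Smim3, of a small membrane protein, 2.17-fold (adjusted p = 1.77e-05).

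Downward changes among bright genes were fewer, and several belonged to Notch signalling. Of 22 Notch pathway genes 4 fell under both scalings, 1 rose with the deposited values only and 17 did not pass, with a median of -0.22 and 16 members below the median gene, against 2.02% of all genes that fell. Hes5, a repressor that Notch induces in astrocytes and neural progenitors, had levels of 10.44, 11.04 and 11.23 in sleep and 9.83, 10.32 and 10.56 after sleep deprivation (1.72-fold lower, adjusted p = 0.012). The groups overlapped at their edges, with 4 of 6 sleep-deprived animals below every sleeping one, and both of its probe sets passed. Nrarp, a Notch-induced inhibitor of the pathway, went from 11.70, 12.002 and 12.10 to 11.36, 11.62 and 11.70 (1.42-fold lower, adjusted p = 0.0098), with 5 of 6 sleep-deprived animals below every sleeping one, and 1 of 2 probe sets passed. Heyl, another effector repressor, was 1.83-fold lower (adjusted p = 0.0264), but the call was lost in 7 of 21 alternatives and held for 1 of 3 probe sets. It was lost without sleep array 1 or 3 or without sleep deprivation array 1, 4 or 6, at adjusted p = 0.0531 to 0.0633. The ligand gene Dll1 was dim and went from 5.17, 5.65 and 6.78 to 3.87, 4.27 and 4.55 (3.33-fold lower, adjusted p = 0.00154) without overlap.

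The remaining Notch genes gave no uniform picture. Jag1, the gene of a ligand, had a difference of -1.10 ± 0.35 without passing (adjusted p = 0.0693), and it passed as lower in the fit blocked on the replicate number (adjusted p = 0.00445). Notch1 differed by 0.15 ± 0.16 (adjusted p = 0.321), and Hes1 by 0.32 ± 0.63 (adjusted p = 0.755). In Hes1 the sleeping animals alone spanned 6.41 to 9.05. Lfng, which encodes a glycosyltransferase that tunes Notch receptors, had a difference of 0.42 (adjusted p = 0.761), and with the replicate number as a block it passed as higher (adjusted p = 0.0131). Hes5, Nrarp and Heyl were 8.76-fold, 11.8-fold and 12.7-fold more abundant in the bound than in the unbound fraction of sleep, and their levels in the unbound pools did not pass as changed (adjusted p = 0.835, 0.953 and 0.78).

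The Hes5 window is printed because this gene is the classical readout of the pathway. The core TGGGAA, bound by the Notch effector RBPJ, was searched on both strands and stood in 24.2% of all windows, in 21% of those of bright genes that rose and in 23.9% of those of bright genes that fell. In Hes5 (chr4:154960673-154960972, plus strand) it lay at bases -82 to -77 and, in the reverse orientation as TTCCCA, at -226 to -221, both in capitals.
Hes5: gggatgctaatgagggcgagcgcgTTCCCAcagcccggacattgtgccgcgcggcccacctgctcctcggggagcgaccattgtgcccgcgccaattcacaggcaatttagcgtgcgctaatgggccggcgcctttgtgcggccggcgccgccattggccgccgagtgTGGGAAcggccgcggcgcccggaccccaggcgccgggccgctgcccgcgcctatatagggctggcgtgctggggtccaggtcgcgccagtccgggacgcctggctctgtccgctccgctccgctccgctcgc

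Some single ligand genes were lower as well, while the lists that hold such genes went both ways. Wnt7a, which astrocytes and neurons secrete, had levels of 8.39, 9.02 and 9.53 in sleep and 7.75, 7.99 and 8.63 after sleep deprivation (1.95-fold lower, adjusted p = 0.00586), with 4 of 6 sleep-deprived animals below every sleeping one. The call was lost with the mean of its 3 probe sets. Ndp, which encodes norrin, a ligand of the receptor FZD4 that supports the blood-brain barrier, went from 8.51, 8.88 and 9.05 to 7.83, 8.12 and 8.59 (1.73-fold lower, adjusted p = 0.00171), with 5 of 6 below every sleeping animal. Of 20 Wnt pathway genes 1 fell, 2 rose with the deposited values only and 17 did not pass (median -0.25). Ndp was picked after its values had been seen. Pax6, a homeodomain factor gene, fell by 0.71 on the log2 scale (adjusted p = 0.0128), but 1 of its 5 probe sets passed. Rfx4, a factor of astrocyte and ependymal programmes, rose from 9.96, 10.19 and 10.59 to 10.61, 10.88 and 11.07 (1.45-fold, adjusted p = 0.00139). Dbx2, a homeobox gene, rose 1.79-fold. Of 20 astrocyte identity factors 3 rose, 2 of them under both scalings, and 2 fell (median -0.15). Both list counts stand beside 12.3% of all genes that rose and 2.02% that fell. Under both scalings these shares were 5.3% and 2.01%.

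**Figure D3:**
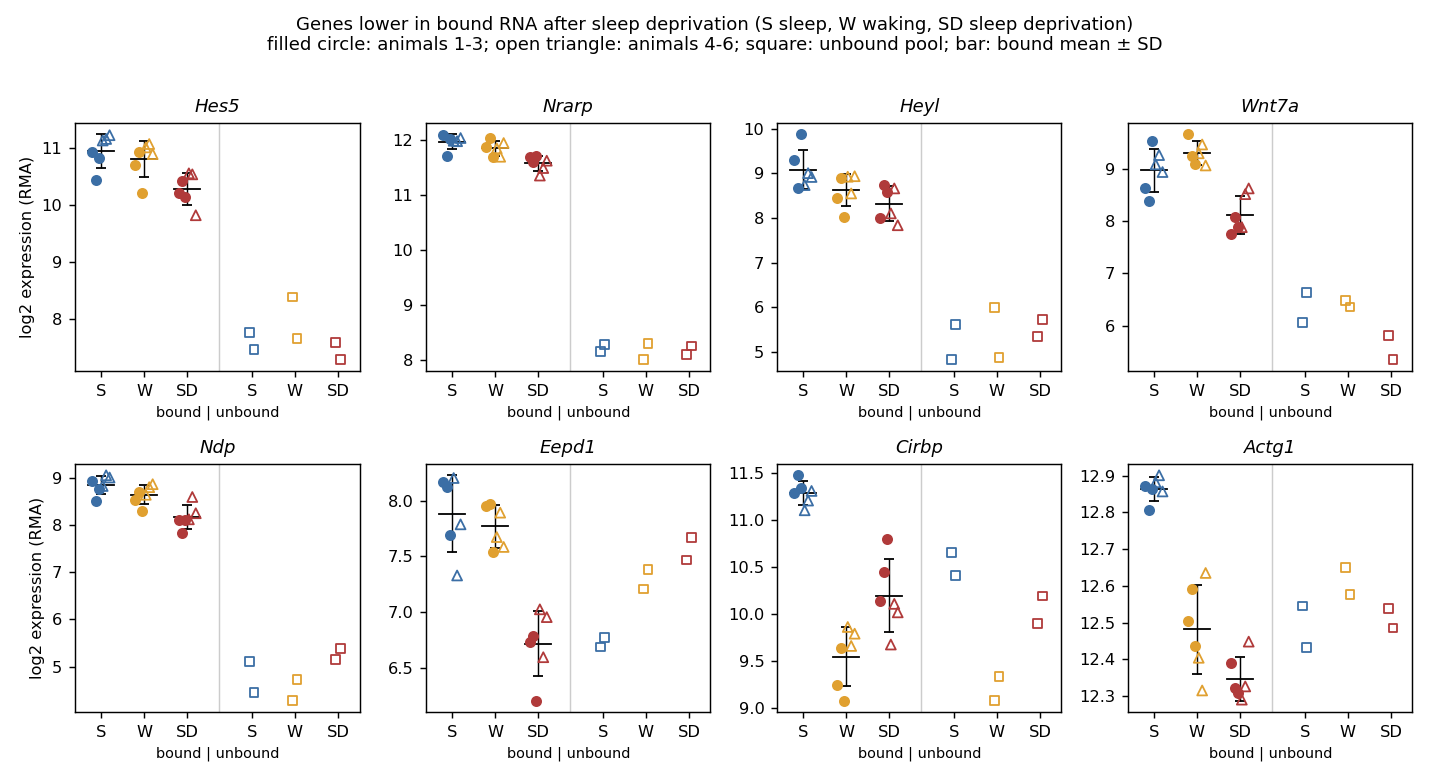
Log2 RMA level (y axis) of 8 genes that were lower after sleep deprivation, array by array, with sleep marked S, waking W and sleep deprivation SD, bound arrays left and unbound pools right of the grey line, and the bound mean ± SD as bars. Eepd1 and Wnt7a are low in the sleep-deprived group but not in waking, whereas Cirbp and Actg1 are low in both awake groups.

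Lower genes outside the lists were often dim. Of the 15 largest decreases, 14 were at dim genes, such as Nek5, a kinase gene (3.84-fold lower, adjusted p = 0.000103), Dhtkd1, a mitochondrial dehydrogenase gene (3.54-fold, adjusted p = 0.003), and Inmt, a methyltransferase gene (3.44-fold, adjusted p = 0.000852). The other was Slc16a14, an orphan member of the monocarboxylate transporter family, at 6.17, 6.57 and 7.68 in sleep and 4.03, 4.97 and 6.00 after sleep deprivation (3.23-fold lower, adjusted p = 0.0118), with 1 of 2 probe sets past the test. Among brighter genes Cbln1, the gene of the synapse organizer cerebellin-1, went from 6.67, 7.23 and 7.67 to 5.63, 6.20 and 6.54 without overlap (2.19-fold lower, adjusted p = 0.00236), a call lost with the mean of its 3 probe sets. Disp1, which encodes a protein that releases Hedgehog ligands, was 2.53-fold lower (adjusted p = 0.00844) in 1 of 2 probe sets. Pnp, purine nucleoside phosphorylase, was 1.5-fold lower (adjusted p = 0.00933), at 10.06, 10.28 and 10.69 in sleep and 9.76, 9.82 and 9.99 after sleep deprivation. Stat2, a mediator of interferon signals, was 1.81-fold lower (adjusted p = 0.0104, lost with the mean of its probe sets) and was the 1 of 18 interferon genes to pass. Of 21 synapse-organizing secreted factors 18 lay below the median gene (median -0.25), of which Wnt7a passed. Over all genes 2.02% fell, and 2.01% under both scalings.

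The mean of 11 ependymal and choroid plexus markers ranged from 6.34 to 8.92 in sleep (median 8.38) and from 5.94 to 8.59 after sleep deprivation (median 7.08). All 11 lay below the median gene and none passed. That of 14 microglia markers was 5.94 to 6.39 in sleep and 5.86 to 6.70 after sleep deprivation. Of the microglia markers Itgam, a dim integrin gene, rose (0.68, adjusted p = 0.000115). Both measured red blood cell markers were dim and rose, Alas2 under both scalings and Hba-a1 with the deposited values only, and their mean lay at 3.42 to 3.83 in sleep and 4.17 to 4.63 after sleep deprivation without overlap. Of 13 endothelial markers 1 rose, and of 10 pericyte and smooth muscle markers 2 rose, none of these 3 under both scalings, and 1 of the 10 fell, Kcnj8, a call lost without sleep array 3 (adjusted p = 0.0513). With the deposited values 12.3% of all genes rose and 2.02% fell, and among dim genes 24.2% rose and 3.84% fell. None of 12 oligodendrocyte markers, 8 oligodendrocyte precursor markers and 10 meningeal markers passed. The part of these cells in the changes above was not tested.

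Metabolic gene lists had between 0 and 2 calls each with the deposited values, where 5.54% of bright genes rose and 0.988% fell. Under both scalings 2.29% of bright genes rose and 0.988% fell. None of 26 genes of fatty acid oxidation, ketone metabolism and lipid droplets passed (median -0.15), and none of 15 genes of the lactate shuttle and glucose transport (median 0.01), such as Ldha, a lactate dehydrogenase gene, at 0.02 ± 0.10 (adjusted p = 0.459) and Slc16a1, a lactate carrier gene, at 0.12 ± 0.22 (adjusted p = 0.595). Of 27 genes of glycolysis, pyruvate entry and the citric acid cycle 2 rose with the deposited values and none under both scalings (median -0.07). All 34 respiratory chain genes lay slightly below the median gene, between -0.27 and -0.004, and none passed. None of the 34 was dim, and the median difference itself was 0.11 over all genes and 0.08 with dim genes left out. The part of signal level in this offset was not tested. The 26 genes of cholesterol synthesis, control and export gave 1 rise, that of Pmvk, phosphomevalonate kinase, from 11.29, 11.50 and 11.61 to 11.94, 12.25 and 12.38 (1.53-fold, adjusted p = 0.000114). Glycogen metabolism gave 1 rise and 1 fall among 24 genes. Ppp1r3c, which brings protein phosphatase 1 to glycogen, had levels of 11.02, 11.11 and 11.18 in sleep and 11.48, 11.56 and 11.72 after sleep deprivation (adjusted p = 0.000417). Ugp2, which makes the UDP-glucose that glycogen synthase uses, went from 11.66, 11.79 and 12.12 to 11.42, 11.45 and 11.56 (1.38-fold lower, adjusted p = 0.0127), a call lost when dim genes were left out. Its other probe sets lay at -0.34, -0.47, -0.44 and -0.55 without passing (adjusted p = 0.139, 0.316, 0.0624 and 0.133). The groups were apart in both genes. Nothing passed among 25 proteasome and 25 autophagy and lysosome genes.

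**Figure D4:**
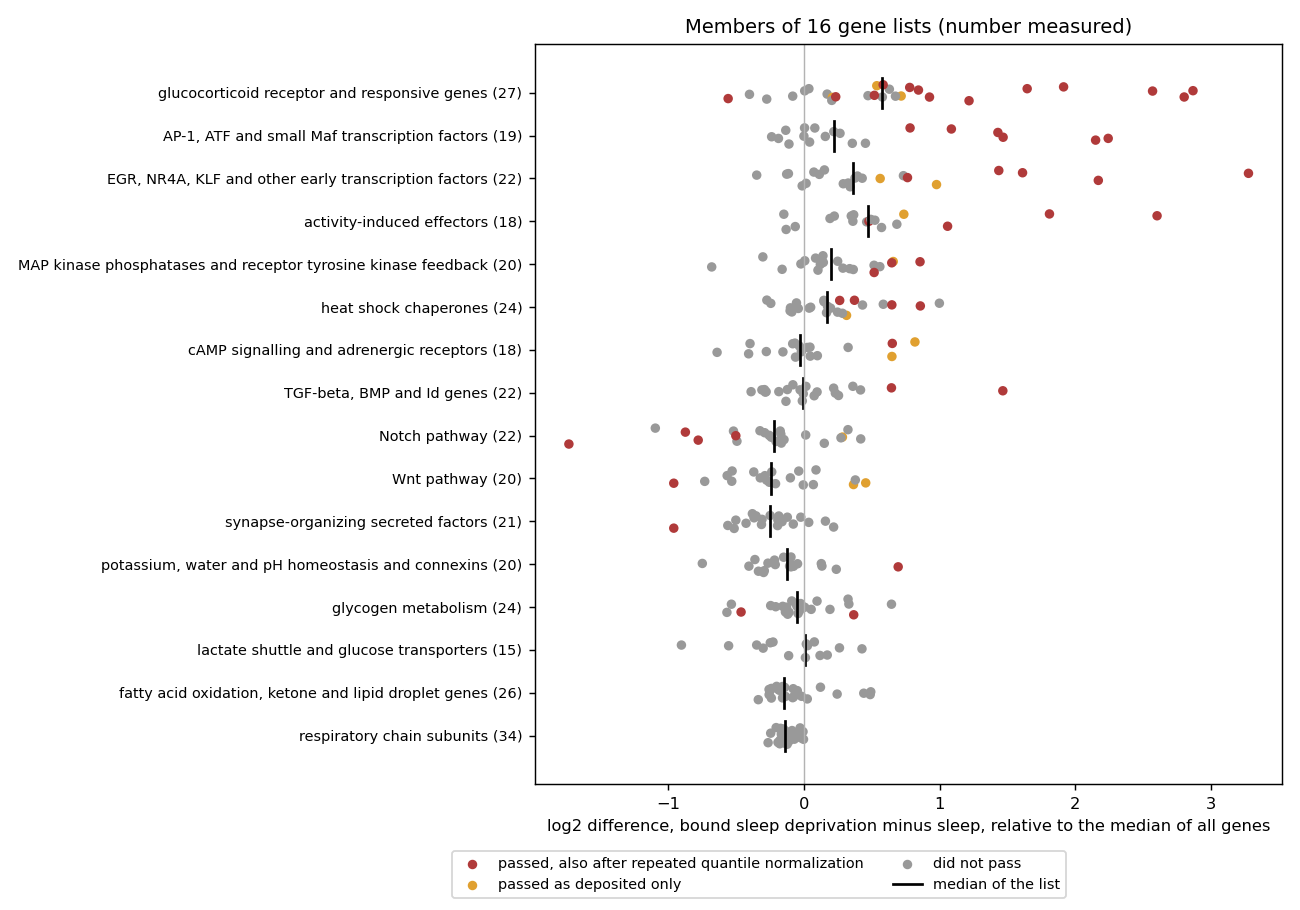
Log2 difference, sleep deprivation minus sleep relative to the median gene (x axis), of each measured member of 16 gene lists (rows, number measured in brackets), with red points for genes that passed under both scalings, orange for those that passed with the deposited values only, grey for the rest and a black bar for the list median. The glucocorticoid list has its median at 0.58 and the respiratory chain list at -0.14.

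Protein folding, the cytoskeleton and the clock gave further calls. Among 24 heat shock chaperones and co-chaperones 5 rose, 4 under both scalings (median 0.17), where over all genes 12.3% rose, and 5.3% under both scalings. Hsph1, a nucleotide exchange factor of HSP70, rose from 9.54, 10.57 and 10.92 to 11.02, 11.38 and 11.79. The HSP90 partner Chordc1 rose 1.57-fold (adjusted p = 0.00706) and the HSP90 activator Ahsa1 1.29-fold (adjusted p = 0.00422). The endoplasmic reticulum list had 4 rises among 24 genes with the deposited values and none under both scalings. Actg1, a cytoplasmic actin gene, had a tight range in both states, 12.81, 12.87 and 12.90 in sleep and 12.29, 12.32 and 12.45 after sleep deprivation (adjusted p = 0.000182), with no overlap. Fscn1, which bundles actin in fine processes, rose 1.77-fold (adjusted p = 0.00212) where Cdc42ep4, which acts below the GTPase CDC42, was 1.47-fold lower (adjusted p = 0.0205), a call lost with the 12 arrays alone and with dim genes left out. Sphk2, a sphingosine kinase gene, cannot be given a direction, since 1 probe set was at -1.31 (adjusted p = 3.51e-05) and the other at 0.84 (adjusted p = 6.22e-06). Sleep and sleep deprivation both ended in the light phase. The hour at which the sleep-deprived mice were taken was not given in the sources used here. State and hour therefore cannot be told apart, for clock genes as for all others. Of 13 clock repressors and outputs 2 rose, 1 of them under both scalings, and 2 fell (median -0.25), and of 6 activators 1 rose (median 0.42). The shares over all genes were 12.3% higher and 2.02% lower. Per2 rose 1.6-fold, while its other probe sets lay at 0.11 (adjusted p = 0.474) and, dim, at 0.23 (adjusted p = 0.0466). Per1 passed as higher with the deposited values only (2.2-fold, adjusted p = 0.0333). Per3 was 1.66-fold lower (adjusted p = 0.0216, lost in 3 of 21 alternatives, among them without sleep deprivation array 5, at adjusted p = 0.0518). None of the other Per3 probe sets passed as lower, and a dim one passed as higher (0.42, adjusted p = 0.00158). Npas2, a partner of BMAL1, rose from 8.68, 9.04 and 9.42 to 9.83, 10.15 and 10.43, and Dbp, an output of the clock, went from 12.66, 12.77 and 12.86 to 11.37, 11.68 and 12.38, both without overlap.

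Spontaneous waking gives a second awake state, which differs from sleep deprivation in the hour of the day as well as in how the animals were kept awake. The contrasts of either awake state with sleep share the sleep arrays. Sleep deprivation against waking gave 759 higher genes (4.17%) and 485 lower (2.67%), 1244 in all and 1913 with the replicate number as a block. Waking against sleep gave 1650 higher (9.07%) and 389 lower (2.14%). Emd, the gene of the nuclear envelope protein emerin, was high in sleep deprivation alone. Its levels were 9.31, 9.72 and 10.002 in sleep, 9.17, 9.60 and 9.74 in waking and 10.86, 11.15 and 11.67 after sleep deprivation. It was 2.8-fold above sleep (adjusted p = 4.25e-06), 1.70 ± 0.15 above waking (adjusted p = 5.32e-06), and waking differed from sleep by -0.22 (adjusted p = 0.718).

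Dapk2, a kinase gene linked to autophagy and cell death, behaved alike, at 4.68, 5.22 and 6.09 in sleep, 5.17, 5.63 and 6.32 in waking and 7.00, 7.27 and 7.43 after sleep deprivation. Eepd1, the gene of a DNA repair nuclease, did the opposite, at 7.33, 7.96 and 8.20 in sleep, 7.54, 7.78 and 7.97 in waking and 6.20, 6.76 and 7.02 after sleep deprivation. It was 2.43-fold below sleep (adjusted p = 0.000113) and at -1.08 against waking (adjusted p = 0.00058), but 1 of its 2 probe sets did not pass. Of the glucocorticoid list, Fkbp5 (1.97, adjusted p = 0.0101), Cdkn1a (2.25, adjusted p = 0.00272), Hif3a (1.47, adjusted p = 0.00509) and Nfkbia (0.61, adjusted p = 0.0258) exceeded waking, as did Klf15 (0.64, adjusted p = 0.0126). Crem exceeded waking by 0.95 (adjusted p = 0.000543), Sik1 by 0.79 (adjusted p = 0.00233), Maff by 0.80 (adjusted p = 0.04) and Pde4d by 0.61 (adjusted p = 0.00854). Arc, Egr2, Nr4a1 and Dusp1 did not pass against waking (adjusted p = 0.64, 0.552, 0.468 and 0.609).

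Further genes, picked after their values had been seen and forming no list, gave values on both sides. Kdm3a, a histone H3 demethylase gene, was 1.96-fold above sleep (adjusted p = 0.000826) and 0.84 above waking (adjusted p = 0.00912), and Hdac4, a class IIa histone deacetylase gene, 1.88-fold above sleep (adjusted p = 0.00144) and 0.64 above waking (adjusted p = 0.0469). All 3 probe sets of Hdac4 passed against sleep. Hdac5, of the same class, was 1.46-fold lower than in sleep (adjusted p = 0.0462, lost in 13 of 21 alternatives) and differed from waking by 0.02 (adjusted p = 0.946). Nt5c2, a cytosolic nucleotidase gene, was 1.59-fold above sleep and 0.56 above waking (adjusted p = 0.00215). Rfx4, Dio2 and Lrrc8a exceeded waking by 0.50, 0.45 and 0.50 (adjusted p = 0.0133, 0.0441 and 0.0372). Wnt7a differed from waking by -1.21 (adjusted p = 0.000931) and Ndp by -0.50 (adjusted p = 0.0371), whereas Hes5 did not pass (-0.55, adjusted p = 0.075). Cirbp, the cold-inducible RNA-binding protein gene, was lowest in waking, at 11.10, 11.30 and 11.47 in sleep, 9.68, 10.12 and 10.79 after sleep deprivation and 9.08, 9.65 and 9.86 in waking, and was 0.62 higher after sleep deprivation than in waking (adjusted p = 0.0248).

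By size alone, the largest differences from waking were those of Tcim (2.53, adjusted p = 0.0132), Cdkn1a, Ankrd44, a dim ankyrin repeat gene (2.05, adjusted p = 0.000853), Fkbp5 and the dim pseudogene Znf41-ps on the higher side. On the lower side they were those of Snai2, a transcriptional repressor gene (-1.73, adjusted p = 0.0426), Zfp493 (-1.57, adjusted p = 0.00724), Gnat2, a transducin gene (-1.57, adjusted p = 3.08e-05), Vegfd, a lymphatic growth factor gene (-1.57, adjusted p = 0.0243), and Pcsk5, a proprotein convertase gene (-1.55, adjusted p = 0.0482). All of these on the lower side but Zfp493 were dim. Gnat2 was also lower than in sleep, while Snai2, Zfp493, Vegfd and Pcsk5 did not pass against sleep (adjusted p = 0.855, 0.947, 0.543 and 0.0645), although Pcsk5 did in the fit blocked on the replicate number (adjusted p = 0.0148). Rin2 exceeded waking by 0.94 (adjusted p = 0.00272), Fscn1 by 1.16 (adjusted p = 0.00066) and Smim3 by 0.67 (adjusted p = 0.00453). Adm and Mfsd2a differed from waking by 0.14 and 0.03 without passing (adjusted p = 0.914 and 0.972).

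The effect of sleep deprivation was also set against that in the unbound pools of the same animals. The fit treated pools and bound arrays as independent and gave both 1 estimate of the spread. Its standard errors and p-values therefore leave out the shared animals. In the pools 734 genes were higher (4.03%) and 265 lower (1.46%), from 2 pools per state, and the 999 calls fell to between 410 and 508 when 1 pool was left out. The difference between the effects passed in 529 genes toward higher in the bound fraction (2.91%) and in 361 toward lower (1.98%), 890 in all, and 447 to 505 with 1 pool left out or 22 with dim genes left out. Crem had unbound levels of 8.55 and 8.53 in sleep and 8.86 and 8.53 after sleep deprivation, so that its bound rise of 1.43 stood against an unbound difference of -0.02 ± 0.25 (adjusted p of the difference between fractions 0.00639). Hif3a rose by 2.33 ± 0.61 more in the bound fraction (adjusted p = 0.0343), Emd by 1.21 ± 0.29 (adjusted p = 0.025), Dapk2 by 1.52 ± 0.42 (adjusted p = 0.0471) and dim Edn1 by 1.48 ± 0.23 (adjusted p = 0.000646). Tcim, whose product regulates Wnt and NF-kappa-B signalling, rose from 3.71, 4.88 and 6.36 to 7.09, 9.09 and 9.84 in the bound fraction, while the pools had 5.26 and 5.24 in sleep and 4.94 and 4.67 after sleep deprivation (difference between fractions 4.22 ± 1.13, adjusted p = 0.0345).

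Among lower genes the fractions differed for Eepd1, which was at -1.28 in the bound and 0.66 in the unbound fraction (difference -1.94 ± 0.31, adjusted p = 0.00048), for Ndp (-1.10 ± 0.28, adjusted p = 0.0181) and for Actg1 (-0.47 ± 0.14, adjusted p = 0.0327). For Maff, Arc, Nr4a1, Homer1 and Dusp1 the 2 fractions gave similar values, 2.24 and 2.14, 2.60 and 2.14, 2.17 and 1.95, 1.06 and 1.04, and 0.86 and 0.93 in the bound and the unbound fraction, and the difference did not pass (adjusted p = 0.984, 0.876, 0.946, 0.981 and 0.896). Some genes enriched in the bound fraction had higher values in both. The connexin 30 gene Gjb6 was higher by 0.58 in the bound and 0.93 in the unbound fraction, Ppp1r3c by 0.37 and 0.83, and Mertk by 0.52 and 1.01, without a difference past the test (adjusted p = 0.313, 0.0505 and 0.249). In the pools the mean of the 26 astrocyte markers was 8.37 to 8.42 in sleep and 8.66 to 8.72 after sleep deprivation. That of the 21 neuron markers had medians of 11.03 and 11.23. These levels include the shift of the median gene, 0.18 in the pools. The part of astrocyte RNA in the unbound rises of these genes, of Dio2, and of Plscr1 and Tnc below was not tested.

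The largest differences between fractions came in part from the pools. P2ry6, a dim nucleotide receptor gene (3.52 ± 0.61, adjusted p = 0.00157), Stat5a, a cytokine-activated factor gene (2.48 ± 0.31, adjusted p = 9.31e-05), dim Skor1 (2.65 ± 0.43, adjusted p = 0.000854) and dim Zfp758 (2.48 ± 0.39, adjusted p = 0.000734) had unbound differences of -2.34, -1.99, -2.69 and -2.40. In the bound fraction Skor1 and Zfp758 did not pass. In the opposite direction Plscr1, a phospholipid scramblase gene (-2.82 ± 0.53, adjusted p = 0.00239), and Tnc, the gene of the matrix protein tenascin C (-2.66 ± 0.56, adjusted p = 0.00581), rose in the pools by 2.46 and 1.93 and did not pass in the bound fraction (adjusted p = 0.644 and 0.177). Both were enriched in the bound fraction of sleep, 21-fold and 11.6-fold. Tmem120a (-2.40 ± 0.65, adjusted p = 0.0305), Erv3 (-3.19 ± 0.81, adjusted p = 0.0207) and dim Ttk (-2.45 ± 0.22, adjusted p = 2.91e-06) completed the 5 of that side.

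**Figure D5:**
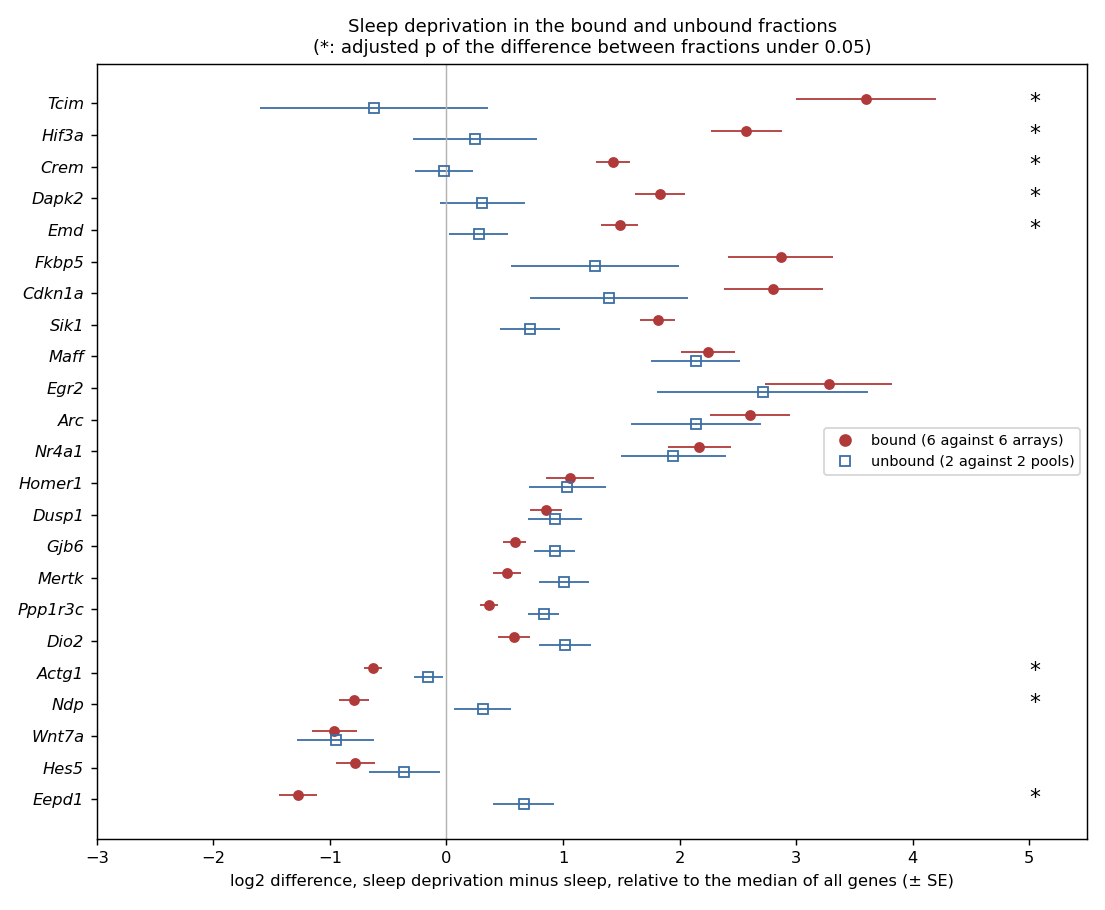
Log2 difference, sleep deprivation minus sleep relative to the median gene of each fraction (x axis, ± SE), of 23 genes (rows) in the bound arrays (red circles, 6 against 6) and the unbound pools (blue squares, 2 against 2). Stars mark the 8 genes whose difference between fractions passed, among them Crem at 1.43 against -0.02 and Eepd1 at -1.28 against 0.66.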

How the data were processed

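Affymetrix mouse genome arrays were read as deposited. Per the submitters' processing notes the authors computed the values with RMA, and they are log2 levels per probe set. The RMA version and which arrays were normalized together were not given in the sources used here. Of 45101 probe sets, 64 were controls, 34945 paired with 1 gene symbol, 932 with several and 9160 with none. The 18193 genes tested were each represented by 1 probe set, that of the highest mean over 24 arrays.

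Linear models came from limma 3.58.1 (R 4.3.3), and p-values were adjusted over all genes after Benjamini and Hochberg. State comparisons used the 18 bound arrays, and those with the unbound pools all 24 arrays in 6 groups. The latter had no term for the animals that pools and bound arrays shared. Pools of 3 animals and arrays of 1 animal had 1 common estimate of the spread. The replicates were separate animals, and their number limits the precision. The scripts were tested on simulated data. Figures were drawn with matplotlib 3.10.9 under Python 3.11.15.

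The main fits had no block. Sleep and sleep deprivation arrays that share a number had residuals correlated at 0.2678 to 0.5269 in all 6 pairs. These correlations were -0.05994 to 0.181 once the difference between animals 1 to 3 and 4 to 6 was removed. Of 6 sleep arrays 4 matched their own number best. A pairing of single animals by number, beyond these sets, is therefore not shown. Where the block changed a call or a count by more than 1.5 times its value stands beside the result.

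The comparison and gene lists were chosen with earlier results of these data known. Named genes were the 15 largest changes of each sign under both scalings, the 5 largest of each sign against waking and between fractions, and list members. The largest changes among brighter genes were added after the values were seen, as were genes said to be so and Ndp, Sik2, Dio2, Slco1c1, Hdac4, Kdm3a and Nt5c2. Promoter windows came from RefSeq. Alternatives were the 2 blocks, scaling, dim genes left out, the mean of probe sets or every probe set, array weights, a variance trend with intensity, at least 1.5-fold, the 12 arrays alone and each array left out.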

Additional observations from a re-analysis of the deposited data

Results flagged for a closer look

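In 68 genes described closely, the highest or lowest array stood far from the rest of its group in 8 of 204 groups of 6, where chance gives about 1 in 20. In sleep these were array 3 for Ugp2 (highest, 12.12), array 2 for Nrarp (lowest, 11.70) and array 6 for Hdac4 (highest, 10.38). After sleep deprivation it was array 4 for Ugp2 (highest, 11.56). In waking they were array 3 for Nfkbia (lowest, 10.03), Nr3c1 (lowest, 9.14) and Dbp (highest, 12.49) and array 2 for Homer1 (highest, 11.88).

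The effect of sleep deprivation differed between the bound fraction and the unbound pools by test in 9 of these genes. The bound minus unbound difference was 4.22 for Tcim, 2.33 for Hif3a, 1.52 for Dapk2, 1.48 for Edn1, 1.45 for Crem and 1.21 for Emd. It was -1.94 for Eepd1, -1.10 for Ndp and -0.47 for Actg1.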

How the results depend on the processing

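The 2597 genes called between sleep deprivation and sleep became 4102 with the animal set as a block, 1728 after repeated quantile normalization, 339 with dim genes left out, 1062 at 1.5-fold or more and 4438 over every probe set. The 2230 higher genes became 3425, 964, 293, 779 and 3791 in that order, and 1070 with centred arrays. The 367 lower genes became 677 with the set block, 764 after quantile normalization, 777 with centred arrays, 46 with dim genes left out, 749 over every probe set and 654 with the replicate number as a block. Against waking, 1244 became 1913 with the replicate block, 2164 with the set block and 76 with dim genes left out. In the unbound pools 999 became 1505 with the set block and 108 with dim genes left out, and 410 to 508 with 1 pool left out. The 890 differences between fractions became 22 with dim genes left out and 447 to 505 with 1 pool left out. The causes were not tested. With the mean of probe sets the difference changed sign for Ccna2 (-0.281), Dll4 (-0.094) and Myh11 (-0.012). The replicate block changed no other call against sleep in the bound fraction among the genes whose calls the report gives, beyond those named there.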
